A study of Mus musculus with 12 samples.

Results

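The genes described here are 4 simple-epithelial keratins (Krt7, Krt8, Krt18 and Krt19) and 6 genes of the desmosome or its neighbourhood (Dsp, Dsg2, Dsc2, Pkp2, Jup and Perp). They were chosen by name, as every probe set of the deposited table whose single platform gene symbol was one of the 10. That gave 23 probe sets of 45101, and all 10 genes were measured among the 18193 genes of the array. The samples were TBV2 cells, a wild-type embryonic stem cell line from strain 129/SvP mice. The proline cultures (called PiCs in the labels) received 500 µM L-proline for 5 days, and the control cultures (ESCs) had the same medium for 5 days with no proline added. Both groups were seeded sparsely on gelatin, with no feeder layer, in medium that held leukemia inhibitory factor (LIF) and lacked non-essential amino acids. Each group had 2 biological replicates of 3 Affymetrix arrays each, 12 arrays in all, and everything comes from a single cell line. The labels do not say that the biological replicates were separate cultures, so the p-values measure only the spread between these samples, which may be partly technical.

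Keratins are the intermediate filament proteins of epithelia, and a filament forms only from a type I (acidic) keratin together with a type II (basic) one. Krt8 (type II) with Krt18 (type I) is the earliest keratin pair of the mouse embryo and is best known there from the trophectoderm, while Krt7 (type II) and Krt19 (type I) accompany it in many simple epithelia. Desmosomes are the junctions that anchor these filaments at contacts between cells. In them the cadherins desmoglein (Dsg2) and desmocollin (Dsc2) span the gap, plakoglobin (Jup) and plakophilin (Pkp2) bind the cadherin tails, and desmoplakin (Dsp) ties them to keratin.

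Values are log2 signals as the authors deposited them, a gene's value is that of whichever of its probe sets was brightest on average, and the 3 arrays of a biological replicate were averaged. Repeat arrays of a replicate had a pairwise Pearson r of 0.996 to 0.998 over probe sets, arrays from both replicates of a group 0.985 to 0.989, and arrays from the 2 groups 0.962 to 0.981. All 10 markers of embryonic stem cells, among them Pou5f1 and Sox2, had a mean above the 40th percentile of probe sets (5.36), the limit used here for a dim signal, since detection calls were not used. One of them, Zfp42 (Rex1), fell by 1.39 ± 0.14 (adjusted p = 0.0288 in limma) and the other 9 did not pass, with Pou5f1 at -0.29 ± 0.23 and Dppa5a at -0.36 ± 0.13. Lin28a measured in the other direction, at 0.67 ± 0.11 (adjusted p = 0.0530 in limma), with all proline arrays above all control arrays. Of these 10 markers, 1 was above 0 and 9 below, and 5 had an unadjusted p under 0.05 in limma. Their summed linear signal was 58900 and 55500 in proline replicates 1 and 2, against 71850 and 73500 in control replicates 1 and 2. The 5′ minus 3′ signal of the beta-actin control, a sign of RNA integrity and labelling, was -0.66 and -0.24 in proline replicates 1 and 2, against -0.90 and -0.50 in control replicates 1 and 2 (log2). It was thus higher in replicate 2 of both groups, and higher in proline than in control at each replicate number. The same value for the Gapdh control was -0.36 and -0.11 in proline replicates 1 and 2, against -0.44 and -0.15 in control replicates 1 and 2. Both values rose from control replicate 1 through proline replicate 1 and control replicate 2 to proline replicate 2. Krt8, Krt18, Krt19, Krt7 and Perp had the same order. The part of RNA integrity and labelling in the results below was not tested.

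The comparison of proline with control asks whether keratin and desmosome transcripts changed with the amino acid. All 10 genes had a higher mean signal in proline than in control cultures, against 43.9% of all genes, and so did all 23 probe sets, but in limma 0 of the 10 passed an adjusted p of 0.05. Over all genes that threshold was passed by 4.36%, with 3.03% higher and 1.34% lower. At an unadjusted p under 0.05 the count was 1 of the 10 genes, Pkp2, where 12.7% of all genes were higher and 9.32% lower. The median log2 fold change of the 10 genes was 1.08, against -0.03 over all genes, and 5 of them measured at least 2-fold higher, against 4.66% of all genes. These counts describe a list chosen by name and are not a test of it. All but Pkp2 differed by more between the biological replicates of at least 1 group than between the group means. A bulk signal cannot tell more keratin-positive cells from more keratin RNA per cell.

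**Figure D1:**
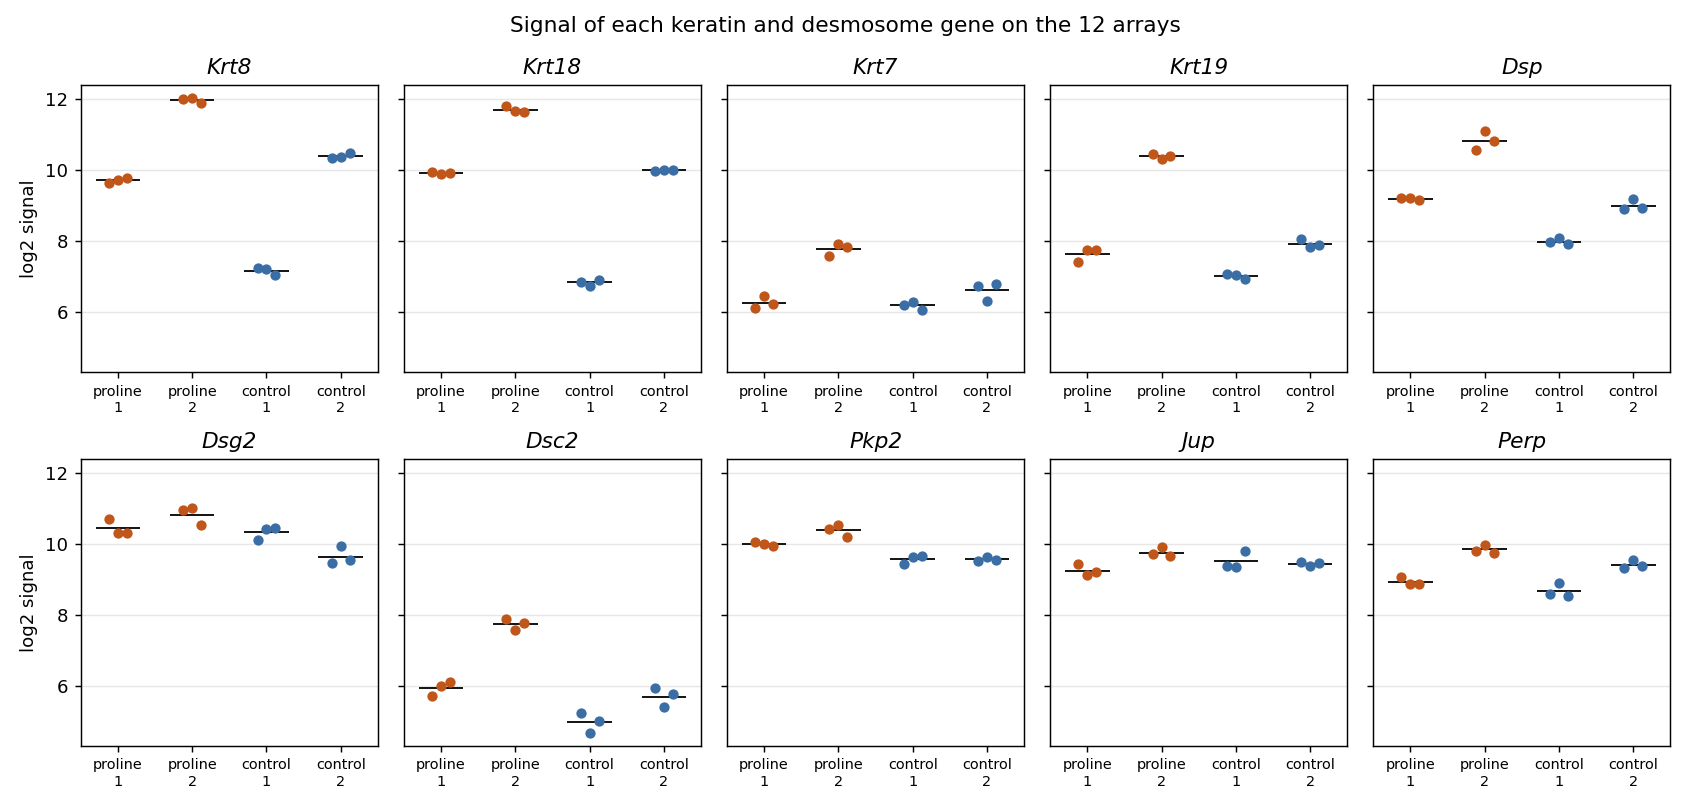
Log2 signal (vertical axis, shared by all panels) of the probe set used for each of the 10 genes in the biological replicates of proline and control cultures (horizontal axis). Points are single arrays and bars are the means of 3 arrays. Krt8 in control replicate 2, at 10.40, lies above proline replicate 1, at 9.71, while Pkp2 is higher on all 6 proline arrays than on any control array.

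Krt8 had a log2 signal of 9.71 and 11.97 in proline replicates 1 and 2, against 7.17 and 10.40 in control replicates 1 and 2. The arrays of one biological replicate lay within 0.21 of each other. The 6 proline arrays ran from 9.65 to 12.03 with a median of 10.83, and the 6 control arrays ran from 7.03 to 10.48 with a median of 8.80. The groups overlap, because control replicate 2 is higher than proline replicate 1. The log2 fold change was 2.06 ± 1.30 (moderated SE, n = 2 biological replicates per group), with a 95% interval of -1.38 to 5.50 and an adjusted p of 0.459 in limma. Its other probe sets, both of the kind (suffix x) that can also bind similar transcripts, measured 2.16 ± 1.41 and 2.08 ± 1.33 when limma was fitted to every probe set, as were all values below for probe sets that do not stand for a gene.

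Krt18, which encodes the filament partner of Krt8, measured 9.92 and 11.70 in proline replicates 1 and 2, against 6.84 and 10.0003 in control replicates 1 and 2. Proline arrays ran from 9.90 through a median of 10.78 to 11.81, and control arrays from 6.74 through a median of 8.45 to 10.01. Here too control replicate 2 reached proline replicate 1, and the groups overlap slightly. For Krt18 the fitted change was 2.39 ± 1.20 (95% interval -0.78 to 5.56, adjusted p = 0.346 in limma). Without control replicate 1, the measured change was 0.45 for Krt8 and 0.81 for Krt18, and without control replicate 2 it was 3.67 for Krt8 and 3.97 for Krt18, with 0 genes past the threshold in either fit.

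The Krt8 and Krt18 signals tracked each other over the 12 arrays (Pearson r = 0.989, a description, since the arrays are repeats of 4 biological replicates). The Krt8 and Krt18 genes lie side by side on chromosome 15, with 0 protein-coding genes between them in the RefSeq gene table, and are read in opposite directions. Their promoter windows are shown because these signals moved most nearly together. The sequences come from RefSeq (GRCm38.p6), run 5′ to 3′ on the gene's strand from 250 bases before the annotated start to 30 bases after it, and have capitals where any of 7 short motifs matched on either strand.
Krt8, chr15:102004313-102004592, minus strand: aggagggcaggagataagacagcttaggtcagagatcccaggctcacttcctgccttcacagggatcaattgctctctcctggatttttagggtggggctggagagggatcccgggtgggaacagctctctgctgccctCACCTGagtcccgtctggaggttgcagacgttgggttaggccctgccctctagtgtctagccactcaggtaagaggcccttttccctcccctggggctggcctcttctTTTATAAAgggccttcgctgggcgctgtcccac
Krt18, chr15:102027966-102028245, plus strand: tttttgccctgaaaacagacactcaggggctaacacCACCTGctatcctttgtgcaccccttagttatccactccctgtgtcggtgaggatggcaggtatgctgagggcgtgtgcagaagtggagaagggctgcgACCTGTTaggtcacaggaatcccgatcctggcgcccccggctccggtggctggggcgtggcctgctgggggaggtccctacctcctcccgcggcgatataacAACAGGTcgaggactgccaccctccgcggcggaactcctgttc

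Both windows hold the E-box CACCTG, a sequence bound by Snail and Zeb repressors among other factors, at 111 bases before the annotated start in Krt8 and 214 in Krt18. That motif is in 19.1% of all 32851 promoter windows of the same length. The TATA box TATAAA was found in the Krt8 window, in the run TTTATAAA that reads as the motif on both strands and overlaps the annotated start, against 13.1% of all windows. The grainyhead core ACCNGTT was found at 115 and 13 bases before the start of Krt18, against 7.63% of all windows, without overlap with another motif. The motifs AP-1 (TGANTCA, 7.46% of all windows) and TEAD (GGAATG, 13.9%) had no match in either window. These are letter matches in these windows and do not show that a factor binds.

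Krt19, the short type I keratin of simple epithelia, measured 7.64 and 10.39 in proline replicates 1 and 2, against 7.02 and 7.93 in control replicates 1 and 2. Its proline arrays ran from 7.40 through a median of 9.03 to 10.46, and its control arrays from 6.93 through a median of 7.46 to 8.05. Only proline replicate 2 stood clear of all control arrays. Krt19 had a log2 fold change of 1.54 ± 0.96 (95% interval -0.999 to 4.07, adjusted p = 0.453), and 0.16 without proline replicate 2.

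Krt7, a type II keratin of glandular and simple epithelia, measured 6.26 and 7.77 in proline replicates 1 and 2, against 6.18 and 6.61 in control replicates 1 and 2. Proline replicate 1 lay among the control arrays, which ran from 6.06 to 6.80. Krt7 had a log2 fold change of 0.62 ± 0.53 (adjusted p = 0.593), and without proline replicate 2 it was -0.13, on the other side of 0.

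Dsp, the plakin that links the desmosome to keratin, had a signal of 9.20 and 10.83 in proline replicates 1 and 2, against 7.98 and 8.9996 in control replicates 1 and 2. Proline arrays ran from 9.15 through a median of 9.90 to 11.10 and control arrays from 7.91 through a median of 8.49 to 9.18. The groups touch only through 1 array of control replicate 2, at 9.18, and 1 of proline replicate 1, at 9.15. Dsp had a log2 fold change of 1.52 ± 0.64 (95% interval -0.18 to 3.22, adjusted p = 0.270), and it was 0.70 without proline replicate 2. A second probe set measured 1.53 ± 0.67. The third read 4.85 and 7.89 in proline replicates 1 and 2, against 4.74 and 5.37 in control replicates 1 and 2, so that at this dimmer probe set proline replicate 2 alone was clearly higher.

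Dsc2, a desmosomal cadherin, measured 5.94 and 7.74 in proline replicates 1 and 2, against 4.97 and 5.70 in control replicates 1 and 2, a log2 fold change of 1.51 ± 0.65 (95% interval -0.20 to 3.22, adjusted p = 0.276). It was 0.61 without proline replicate 2 and 2.41 without proline replicate 1. Its control mean of 5.33 lies under the dim limit of 5.36, so the fold is not exact. The other Dsc2 probe set read 6.002 and 7.45 in proline replicates 1 and 2, against 4.13 and 4.80 in control replicates 1 and 2. There all 6 proline arrays were above all 6 control arrays, and the change of 2.26 ± 0.55 had an unadjusted p of 0.0123 and an adjusted p of 0.152 in the fit to every probe set, where 0.0998% of probe sets passed. Its control mean of 4.47 also lies under the dim limit, so neither fold is exact, and the sizes at the 2 probe sets were not compared.

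Dsg2, the desmoglein of simple epithelia, had 6 probe sets, all measuring higher in proline, by 0.32 to 0.84 on the log2 scale. The one used for the gene read 10.45 and 10.83 in proline replicates 1 and 2, against 10.32 and 9.64 in control replicates 1 and 2. Here control replicate 1 was the higher control, the opposite of the keratins, and the log2 fold change was 0.65 ± 0.28 (95% interval -0.08 to 1.39, adjusted p = 0.273). It was 0.99 without control replicate 1 and 0.31 without control replicate 2. At 3 other probe sets, with changes of 0.65, 0.84 and 0.83, all proline arrays lay above all control arrays. The Dsg2 and Dsc2 genes sit in the desmosomal cadherin cluster on chromosome 18.

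Pkp2, an armadillo-repeat plakophilin of the desmosomal plaque, measured 9.99 and 10.38 in proline replicates 1 and 2, against 9.57 and 9.56 in control replicates 1 and 2. Proline arrays ran from 9.93 to 10.52 and control arrays from 9.43 to 9.65. It was the 1 gene of the 10 whose 6 proline arrays all lay above the 6 control arrays, a pattern that 13.8% of all genes showed. The log2 fold change was 0.62 ± 0.17 (95% interval 0.17 to 1.07), with an unadjusted p of 0.0169 and an adjusted p of 0.130 in limma. Of its 4 probe sets, the second brightest measured 0.78 ± 0.29, and the others, with means near the dim limit, 0.28 ± 0.19 and 0.02 ± 0.27.

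Jup, which encodes plakoglobin and also serves adherens junctions, measured 9.25 and 9.75 in proline replicates 1 and 2, against 9.51 and 9.44 in control replicates 1 and 2. The proline values lie on either side of the control values. The log2 fold change was 0.03 ± 0.20, with a 95% interval of -0.50 to 0.55 (adjusted p = 0.962), so a change of 2-fold in either direction lies outside the interval. Perp, a membrane protein that desmosomes of stratified epithelia need and a target of p53, measured 8.94 and 9.84 in proline replicates 1 and 2, against 8.67 and 9.42 in control replicates 1 and 2. Both groups were higher in replicate 2, and the log2 fold change was 0.35 ± 0.40 (95% interval -0.71 to 1.41, adjusted p = 0.707). Without proline replicate 2, Jup measured -0.23 and Perp -0.11.

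The promoter windows of Dsp and Jup are set side by side for the desmosome, since Dsp had a wide spread over the replicates and Jup a narrow one. Promoter windows were found for 5 of the 10 genes, and capitals again mark the motif matches.
Dsp, chr13:38151044-38151323, plus strand: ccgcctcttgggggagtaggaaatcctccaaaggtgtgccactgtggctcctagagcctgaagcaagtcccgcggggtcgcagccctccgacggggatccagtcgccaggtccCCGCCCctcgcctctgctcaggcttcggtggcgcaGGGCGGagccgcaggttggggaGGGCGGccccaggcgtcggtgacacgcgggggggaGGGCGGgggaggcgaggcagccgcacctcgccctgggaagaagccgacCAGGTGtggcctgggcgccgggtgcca
Jup, chr11:100397761-100398040, minus strand: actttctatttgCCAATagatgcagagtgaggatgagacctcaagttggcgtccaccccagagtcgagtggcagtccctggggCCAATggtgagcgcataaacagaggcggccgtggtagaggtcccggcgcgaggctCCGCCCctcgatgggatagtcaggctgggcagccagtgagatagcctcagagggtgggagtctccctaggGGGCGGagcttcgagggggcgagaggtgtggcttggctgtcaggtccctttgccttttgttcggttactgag

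Dsp held 4 matches to the GC box GGGCGG, a site for Sp1-type factors, and Jup held 2. Krt7 held 4 as well, while Krt8 and Krt18 held none, and 34.7% of all windows held at least 1. Jup had 2 matches to CCAAT, which is in 36.1% of all windows, and Dsp had an E-box just after its start.

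**Figure D2:**
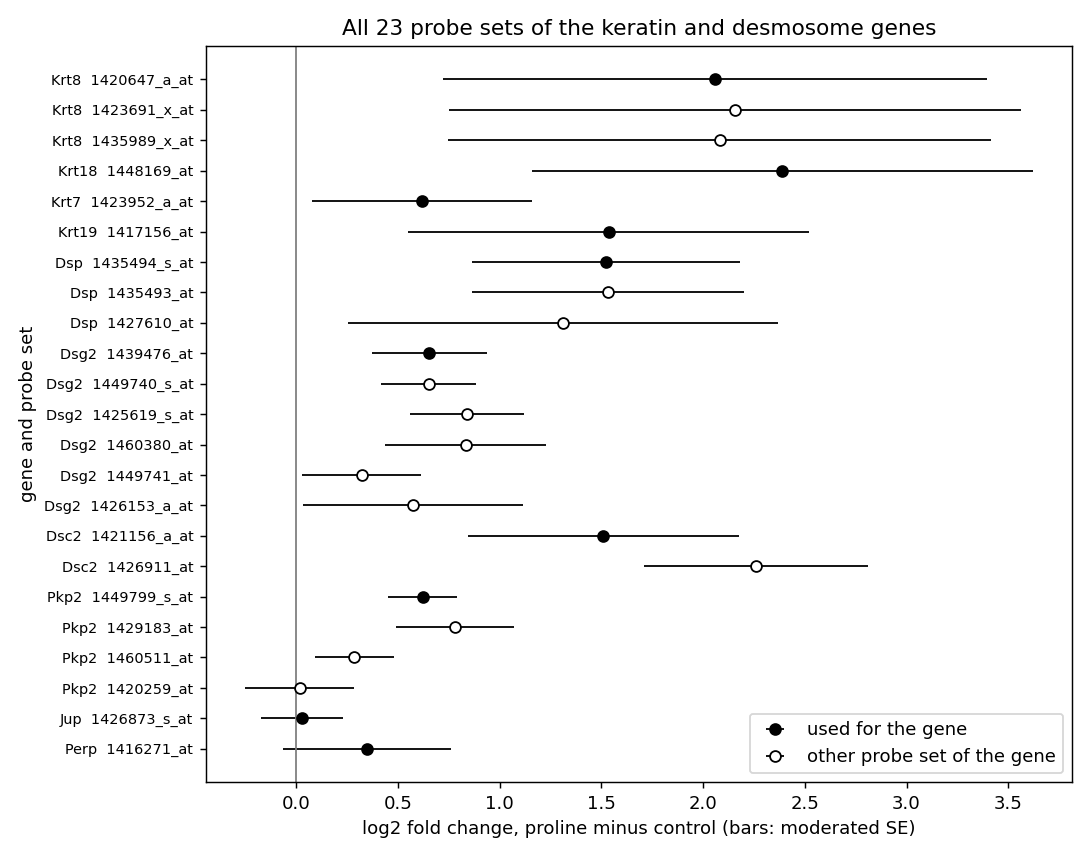
Log2 fold change, proline minus control (horizontal axis), of each of the 23 probe sets, grouped by gene (vertical axis). Filled points are the probe sets used for the genes, open points the other ones, and bars are moderated standard errors. Every point lies above 0, from 0.02 at a dim Pkp2 probe set to 2.39 for Krt18, and the bars of Krt8 and Krt18 are the widest.

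Setting each biological replicate of proline against each of control shows where the spread lies. Proline replicate 2 was higher than control replicate 1 for 10 of the 10 genes, by a median of 2.18, where 43.8% of all genes were above 0. It was also higher than control replicate 2 for 10 of 10, by a median of 1.38, where 44.9% of all genes were above 0. Proline replicate 1 was higher than control replicate 1 for 9 of 10, by a median of 0.52, with Jup as the exception, where 47.3% of all genes were above 0. Against control replicate 2, however, proline replicate 1 was higher for 4 of 10, namely Dsp, Dsg2, Dsc2 and Pkp2, with a median of -0.14, where 49% of all genes were above 0. The 4 keratins, Jup and Perp were lower there, by 0.08 for Krt18 up to 0.68 for Krt8.

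**Figure D3:**
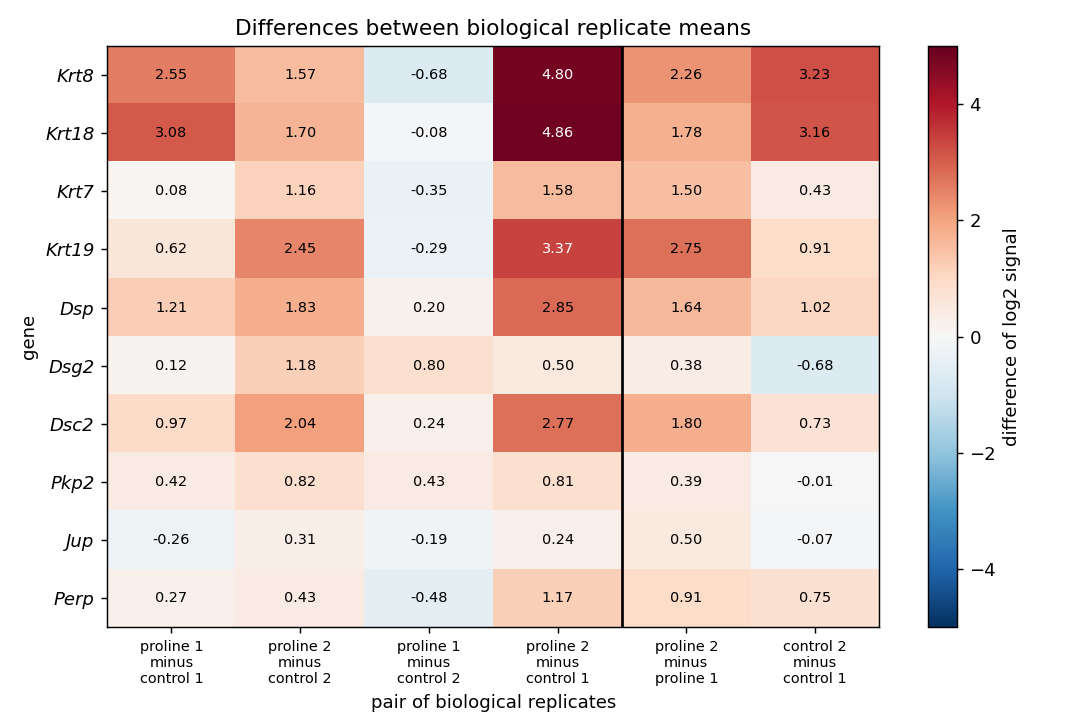
Difference of log2 signal between biological replicate means for each gene (rows) and each pair of biological replicates (columns); red is positive and blue negative. The 4 columns left of the line set proline against control and the 2 columns right of it set replicates of one group against each other. Krt8 and Krt18 differ by 3.23 and 3.16 between the control replicates, and Krt19 by 2.75 between the proline replicates.

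The differences between replicates of one group were large against those of the whole array. Between control replicates, Krt8 was 9.38-fold and Krt18 8.96-fold higher in replicate 2, which made them the second and the third of 18193 genes by size of that difference, after the interferon-induced gene Gbp2b. Between proline replicates, Krt19 was 6.72-fold higher in replicate 2 and ranked 6 by size, Krt8 was 4.78-fold higher and ranked 23, and Dsc2, Krt18, Dsp and Krt7 ranked 52, 55, 69 and 92. At least 2-fold apart were 3 of the 10 genes between control replicates (1.8% of all genes) and 6 of the 10 between proline replicates (2.01% of all genes). Higher in replicate 2 of both groups were 7 of the 10, against 24.9% of all genes. Dsg2, Pkp2 and Jup were the exceptions at the probe sets used for the genes. For Dsg2 and Pkp2 this depended on the probe set. Some of their other probe sets were higher in replicate 2 of both groups and some were not. With 1 value per replicate these differences have no test.

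By Pearson r of log2 signal over the 12 arrays, among 12760 other genes with means above the dim limit, Vgll3 (0.991), Krt18 (0.989) and Tmed7 (0.987) were most like Krt8. Vgll3 measured 5.96 and 7.43 in proline replicates 1 and 2, against 4.36 and 6.14 in control replicates 1 and 2, the same order of cultures as Krt8. Those most like Dsp were Triobp (0.993), Ap1s2 (0.991) and Capn2 (0.991). Capn2 measured 8.16 and 9.45 in proline replicates 1 and 2, against 7.47 and 8.01 in control replicates 1 and 2. The 3 arrays of a biological replicate share their sample, so these r values rest on 4 biological replicates and carry no p.

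As with the 4 keratins above, none of the other keratins measured passed the threshold as higher. By direction alone, 3 of 13 type I and 4 of 15 type II keratins measured above 0. Of 13 type I keratins measured besides Krt18 and Krt19, 0 rose, 2 fell and 11 did not pass. Krt42, measured by a probe set of suffix x, fell by 1.10 ± 0.12 (adjusted p = 0.0300 in limma), with 8.59 and 8.68 in proline replicates 1 and 2, against 9.68 and 9.80 in control replicates 1 and 2. Krt17, a keratin of hair follicle and wounded epidermis, fell by 1.01 ± 0.11 (adjusted p = 0.0301), with 5.83 and 5.90 in proline replicates 1 and 2, against 6.87 and 6.88 in control replicates 1 and 2. In both genes the replicates of a group lay close together and the groups did not overlap. With 1 biological replicate left out, 0 genes of any list passed, and the calls named below share that limit. Krt10, of the upper epidermis, measured -0.39 ± 0.14 and did not pass. All 15 type II keratins listed were measured and 0 passed, with log2 fold changes from -0.22 to 0.16, Krt78 and Krt4 among them at -0.05 and -0.15, and at an unadjusted p under 0.05 the count was also 0. Of these 2 lists, 10 of 13 type I and 6 of 15 type II keratins had means under the dim limit.

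Among 12 other desmosome genes, 9 were measured and 0 passed in limma, also at an unadjusted p under 0.05. Their log2 fold changes ran from -0.15 to 0.44, with a median of -0.02. Pkp4 measured 0.11 ± 0.12 and Pkp3 0.02 ± 0.21, and the highest was periplakin (Ppl) at 0.44 ± 0.21. Cytolinkers and hemidesmosome genes numbered 12 measured, in a list that also took in keratinocyte-associated genes. Of the 12, 1 rose, Krtcap3 (0.92 ± 0.11, adjusted p = 0.0352 in limma), which is of this last kind and not a cytolinker or hemidesmosome gene. The other 11 did not pass, among them the plakin Dst (0.37 ± 0.20) and the integrin Itga6 (-0.09 ± 0.13).

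Intermediate filament genes other than keratins had 3 that rose among 14 measured. These were the neurofilament genes Nefm (4.26 ± 0.47, adjusted p = 0.0301) and Nefl (3.13 ± 0.27, adjusted p = 0.0246) and Nes, which encodes nestin, a filament protein of neural progenitors. Nes measured 9.82 and 10.10 in proline replicates 1 and 2, against 7.66 and 8.26 in control replicates 1 and 2 (adjusted p = 0.0352). The other 11 did not pass, with vimentin (Vim) at -0.19 ± 0.49 and lamin B1 (Lmnb1) at -0.33 ± 0.25. Among them the neurofilament gene Nefh measured in the opposite direction to Nefm and Nefl, at -1.44 ± 0.27 (adjusted p = 0.0660 in limma), with all proline arrays below all control arrays. Of 15 epithelial transcription and splicing factors, 0 rose, 1 fell and 14 did not pass. The one that fell was Grhl3, a grainyhead-like factor of surface epithelia, by 1.27 ± 0.15 (adjusted p = 0.0319). Klf5 measured -0.55 ± 0.19 and Tfap2c -0.69 ± 0.14, and neither passed. The list was mixed, with 7 of 15 above 0. Its highest value was that of the splicing factor Esrp1, 1.65 ± 0.48 (adjusted p = 0.144), and Ovol2, a zinc finger repressor of epithelia, measured 0.66 ± 0.12 (adjusted p = 0.0582), both with all proline arrays above all control arrays.

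**Figure D4:**
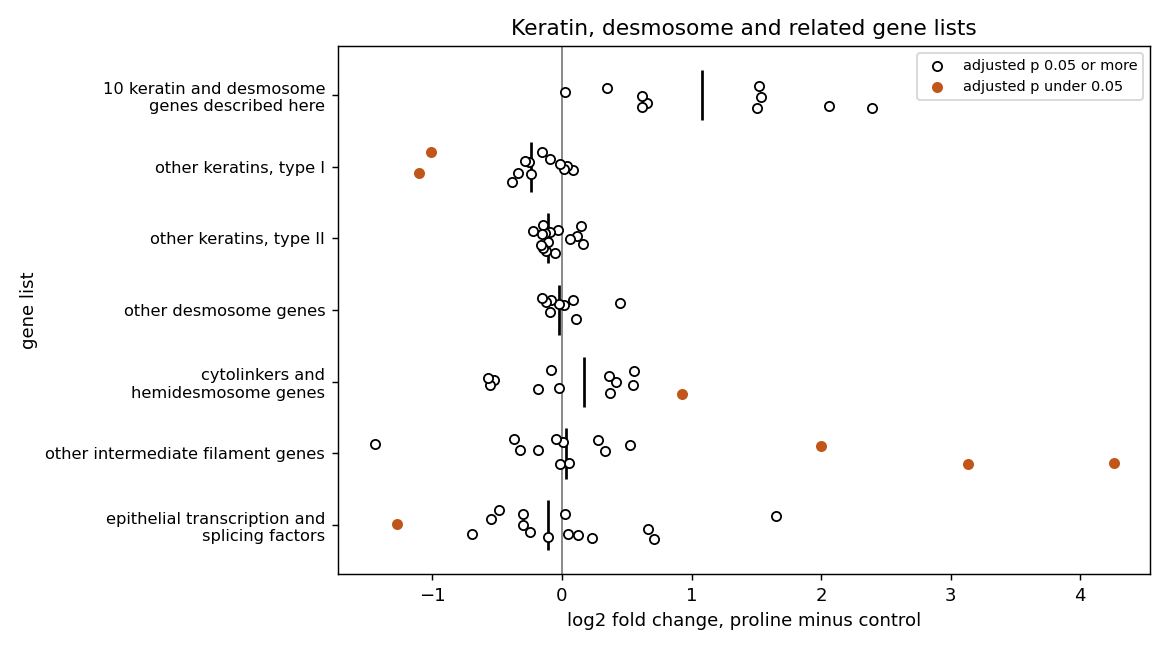
Log2 fold change, proline minus control (horizontal axis), of the 10 keratin and desmosome genes and of 6 related lists (vertical axis). Each point is a gene, filled where its adjusted p is under 0.05, and short bars are list medians. None of the 10 genes is filled, although their median of 1.08 lies to the right of the other list medians, which run from -0.24 to 0.17.

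Markers of other cell types were set beside the keratins, because several of these cell types carry them. The summed linear signal of the 10 keratin and desmosome genes was 6237 and 15850 in proline replicates 1 and 2, against 3919 and 6207 in control replicates 1 and 2. For 10 trophoblast markers it was 1631 and 1860 in proline replicates 1 and 2, against 1677 and 1922 in control replicates 1 and 2, with 4 of the 10 under the dim limit, Elf5 and Tpbpa among them. Without Tfap2c, the brightest of them, the other 9 summed to 882.6 and 1056 in proline replicates 1 and 2. In control replicates 1 and 2 these 9 summed to 522.4 and 563. The higher sum in proline was set by Eomes, which is among these 9. Its log2 signal was 9.02 and 9.33 in proline replicates 1 and 2, against 6.68 and 6.66 in control replicates 1 and 2. Eomes rose by 2.51 ± 0.15 (adjusted p = 0.0246) and the other 9 did not pass, with Cdx2 at 0.65 ± 0.26 and Gata3 at 0.86, against Rhox6 at -1.04, Tfap2c at -0.69 and Ascl2 at -0.59. Of the 10, 5 were above 0 and 5 below. For 14 markers of extraembryonic endoderm the sum was 1121 and 1270 in proline replicates 1 and 2, against 955.5 and 1125 in control replicates 1 and 2, with 6 under the dim limit. Without Dab2, the brightest of them, the other 13 summed to 744.7 and 761.6 in proline replicates 1 and 2. In control replicates 1 and 2 these 13 summed to 847.4 and 952.8. The lower sum in proline was set by Lama1, which is among these 13. Its log2 signal was 6.88 and 7.29 in proline replicates 1 and 2, against 8.34 and 8.72 in control replicates 1 and 2. Lama1 fell by 1.45 ± 0.22 while 13 did not pass, with the endocytic adaptor Dab2 at 1.68 ± 0.28 (adjusted p = 0.0545 in limma). Of the 14, 9 were above 0 and 5 below.

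Markers of epidermis and surface ectoderm summed to 1088 and 2833 in proline replicates 1 and 2, against 909.8 and 1184 in control replicates 1 and 2, over 11 genes of which 0 passed in limma and 2 had an unadjusted p under 0.05. The order of this sum was set by 1 gene, Sfn (stratifin), with 8.83 and 11.12 in proline replicates 1 and 2, against 7.99 and 9.09 in control replicates 1 and 2. Without Sfn the other 10 genes summed to 634.4 and 602.4 in proline replicates 1 and 2, against 655.2 and 638.3 in control replicates 1 and 2. Krt14 and Trp63, which define basal epidermis, had means of 4.47 and 5.08, under the dim limit, and Krt5 measured -0.12 ± 0.11. Fibroblast markers summed to 864.3 and 1883 in proline replicates 1 and 2, against 1539 and 1768 in control replicates 1 and 2, over 12 genes of which 0 passed in limma and 1 had an unadjusted p under 0.05. That gene was Dcn (decorin), at 0.77 ± 0.16 (adjusted p = 0.0769), while smooth muscle actin (Acta2) measured -0.67 ± 0.91 and Thy1 -0.16 ± 0.35. Without Acta2 the other 11 summed to 688.1 and 996.9 in proline replicates 1 and 2, against 1161 and 729.1 in control replicates 1 and 2. Of the 12 fibroblast markers, 11 were higher in replicate 2 than in replicate 1 of proline and 2 in replicate 2 of control. With every gene kept, the epidermal and fibroblast sums were higher in replicate 2 of both groups. So was the sum of the keratin and desmosome genes, from which no gene was left out. In control, most of the difference between replicates in that sum lay in Krt8 and Krt18. Without Sfn, the epidermal sum was lower in replicate 2 of both groups. Without Acta2, the fibroblast sum was lower in replicate 2 of control and higher in replicate 2 of proline. Sfn and Acta2 are the brightest genes of their lists. The trophoblast and endoderm sums were higher in replicate 2 of both groups, with or without their brightest gene. Without Dab2, however, the higher endoderm sum in proline replicate 2 rested on Lama1, which was not left out. The part of such cells in the keratin values was not tested.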

How the data were processed

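Biotin-labelled cRNA of 12 samples was made from total RNA, per the labels' protocols, and the probe set names are those of an Affymetrix array. The authors deposited values for 45101 probe sets, read here as log2 signals from their range of 2.10 to 14.79. The submitters' processing notes name MAS5 and RMA with no version and no role. Array medians ran from 5.99 to 6.03, and no further normalization was applied. Precision is limited by having 2 biological replicates per group.

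GEO's platform annotation gave 34945 probe sets exactly 1 gene symbol; 932 had several and were left unnamed. Array control probe sets were left out. The 3 arrays of a biological replicate were averaged, since the labels do not explain their letters. The 2 proline and 2 control means entered limma 3.58.1 (R 4.3.3; lmFit and eBayes, two-sided), with Benjamini-Hochberg adjustment over 18193 genes and a threshold of 0.05. An exact permutation test of 2 against 2 cannot go below a p of 0.333. On simulated data with 18200 genes this fit found 21.8% of the 2-fold, 62.4% of the 4-fold and 79.4% of the 8-fold changes put in. These shares are over all the genes changed in the simulation. None was worked out for a replicate spread as wide as that of Krt8 and Krt18. The 10 genes, the 11 lists and the rule for named genes (listed genes past the threshold, the 2 with the highest mean signal per list, defining markers, and the 3 genes most like Krt8 and Dsp) were chosen with earlier results of these data known. Lin28a, Ppl, Nefh, Esrp1, Ovol2, Gata3, Rhox6, Ascl2, Dcn and Gbp2b were named after their values were seen. Plots were drawn with matplotlib 3.10.9.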

Additional observations from a re-analysis of the deposited data

Results flagged for a closer look

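Jup on the 6 control arrays had 1 array, control replicate 1c at 9.80, apart from the other 5, which ran from 9.35 to 9.49. The gap to the nearest array was 0.689 of the whole range, above the limit for 6 values. Chance alone marks about 1 in 20 such groups, and 20 groups (10 genes in 2 groups of arrays) were looked at. The arrays of a biological replicate are also not independent.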

How the results depend on the processing

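The 10 keratin and desmosome genes had 0 calls under quantile normalization, median centring, the filter on dim signals, the median over probe sets, a fit to all single probe sets, the intensity trend and without any one biological replicate. With the replicate number as a replicate block the count was 4 (Krt8, Krt18, Dsp and Dsc2, adjusted p from 0.0171 to 0.0400) and over all genes 2039 in place of 794. The labels do not say that equal numbers mark a shared day or batch, and with 2 numbers the pairing cannot be established, although proline 2 minus proline 1 and control 2 minus control 1 correlated at r = 0.338 over genes. With the 12 arrays and a random block the count was also 4 (Krt18, Dsp, Dsc2 and Pkp2, adjusted p from 0.00712 to 0.0179) of 3987 calls. Over all 12 alternatives the adjusted p ran from 0.0175 to 0.902 for Krt8, from 0.0179 to 0.737 for Krt18, from 0.0104 to 0.635 for Dsp, from 0.0178 to 0.624 for Dsc2 and from 0.00712 to 0.357 for Pkp2. The median change of the 10 genes ran from 0.44 without proline replicate 2 to 1.86 without proline replicate 1. Below 0 were Jup with quantile normalization (-0.0096), without control replicate 2 (-0.01) and without proline replicate 2 (-0.23), Perp without control replicate 1 (-0.03) and without proline replicate 2 (-0.11), and Krt7 without proline replicate 2 (-0.13). Without proline replicate 1, at the other end, Jup measured 0.28, Perp 0.80 and Krt7 1.37. Calls over all genes were 351 with the median over probe sets and 45 with every probe set, where the larger number of tests adds to the adjustment. Leaving out any biological replicate left 0 in limma over all genes and in every list (range 0 to 0), where fewer samples entered. At an unadjusted p under 0.05 the counts over all genes were 3676 without proline replicate 1, 2890 without proline replicate 2, 2766 without control replicate 1 and 3544 without control replicate 2. For the lists, with the replicate block 3 epithelial factors, 2 stem cell, 3 trophoblast, 3 endoderm and 1 fibroblast marker passed. With the random block 4 cytolinker, 6 other intermediate filament and 6 epithelial factor genes passed, and 5 stem cell, 4 trophoblast, 4 endoderm, 1 epidermal and 3 fibroblast markers. The median over probe sets gave 1 type I keratin, 0 endoderm and 1 epidermal marker. Every probe set by itself gave 0 for type I keratins, cytolinkers, other intermediate filaments, epithelial factors, stem cell and endoderm markers. The intensity trend gave 3 stem cell and 2 endoderm markers, and the filter 2 endoderm markers. The cause of these moves was not tested.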

Other observations

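The 10 genes furthest apart between proline replicates were Anxa1 (3.54, log2, replicate 2 minus replicate 1), Thbs1 (3.29), Cryab (3.12), S100a6 (2.96), Max (-2.81), Krt19 (2.75), Pmp22 (2.53), Acta1 (2.50), Gbp2b (2.45) and Prss23 (2.42). Between control replicates the 10 were Gbp2b (3.50), Krt8 (3.23), Krt18 (3.16), Gbp2 (2.90), Slc39a8 (2.86), H3f3b (-2.79), Acta1 (2.75), Fgfbp1 (2.60), Samd4 (2.52) and Tagln (2.49). Acta1, a muscle actin, and Gbp2b, an interferon-induced GTPase, were in both sets. These genes were named after their values were seen, and with 1 value per replicate the differences have no test.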
